A study of Mus musculus with 3 samples.

Results

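CpGs in exons of protein-coding genes, far from any gene start, were compared between wild-type and Dnmt3a KO mouse embryonic stem (ES) cells by reduced-representation bisulfite sequencing (RRBS). A CpG was taken when more than 20 reads covered it in both libraries, when it lay on an autosome inside an exon of a protein-coding gene of GENCODE vM1 (mm9 assembly), and when it was more than 5000 bp from every annotated transcript start. Of 327114 CpGs covered to that depth in both libraries, 13661 met these conditions, in 2237 exons of 1703 genes. The rule used no methylation value. RRBS reads the ends of fragments cut by MspI, and 99.9% of the 13661 CpGs lay within 150 bp of an MspI site. It therefore samples the CpG-rich parts of exons.

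ES cells are grown from the early embryo and keep the capacity to form every lineage. The wild-type and Dnmt3a KO lines both had a mixed 129-C57Bl/6 background, and the Dnmt TKO line, which lacks Dnmt1, Dnmt3a and Dnmt3b, was of strain J1. All were cultured in serum with LIF, on gelatine for the knockouts and on feeder cells or gelatine for the wild type, so that strain or support and genotype cannot be told apart. The Dnmt3a gene had been disrupted with CRISPR/Cas9. Each genotype had 1 library, so differences had no replicate check. The intervals given are 95% counting intervals between 2 libraries, not between genotypes, and any PCR copies left in the counts enter them as separate reads. They also ignore that neighbouring CpGs share reads, and 12963 of the 13661 CpGs had another member within 50 bp. The member CpGs had a median of 70 reads in the wild-type library (21 to 291) and of 30 in the Dnmt3a KO library (21 to 120). "Fell" is used for means whose difference has an interval below 0.

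In mammals, CpG methylation is set by the de novo enzymes DNMT3A and DNMT3B and copied after replication by DNMT1. Bodies of transcribed genes are usually methylated in ES cells, where the H3K36me3 mark of elongation recruits DNMT3B, and CpG islands at gene starts usually are not. Exons away from starts lie in gene bodies, and they also hold CpG-dense stretches that stay unmethylated. Of the CpGs taken here, 39.6% were under 20% in wild type and 23.4% were at 80% or more.

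Stretches of 5 coding exons show what was read. The first 3 are from the genes with the largest fall in mean methylation whose member CpGs all lay in coding sequence, and the other 2 are from the genes that kept most of a high wild-type level. Each is written 5′ to 3′ on the coding strand, from the mm9 genome, and capitals mark the member CpGs.
Gucy2e, exon 15 of 19, chr11:69037647-69037778, minus strand: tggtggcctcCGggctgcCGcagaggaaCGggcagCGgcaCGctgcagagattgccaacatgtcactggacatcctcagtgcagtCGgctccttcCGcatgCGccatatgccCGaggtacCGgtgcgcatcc
Igsf21, exon 6 of 10, chr4:139590430-139590573, minus strand: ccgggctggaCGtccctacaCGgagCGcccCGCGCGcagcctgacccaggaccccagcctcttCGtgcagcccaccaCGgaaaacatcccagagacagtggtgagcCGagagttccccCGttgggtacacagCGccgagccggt
Ston2, exon 4 of 5, chr12:92885833-92886046, minus strand: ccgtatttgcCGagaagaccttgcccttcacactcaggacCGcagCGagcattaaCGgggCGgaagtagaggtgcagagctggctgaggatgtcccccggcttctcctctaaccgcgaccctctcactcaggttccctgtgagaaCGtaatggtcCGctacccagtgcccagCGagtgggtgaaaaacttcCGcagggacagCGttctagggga
Cdh1, exon 3 of 16, chr8:109172914-109173055, plus strand: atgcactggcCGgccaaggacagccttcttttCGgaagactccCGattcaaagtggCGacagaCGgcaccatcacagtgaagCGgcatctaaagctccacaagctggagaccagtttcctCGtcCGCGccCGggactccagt
Zfp180, exon 5 of 5, chr7:24890609-24890903, plus strand: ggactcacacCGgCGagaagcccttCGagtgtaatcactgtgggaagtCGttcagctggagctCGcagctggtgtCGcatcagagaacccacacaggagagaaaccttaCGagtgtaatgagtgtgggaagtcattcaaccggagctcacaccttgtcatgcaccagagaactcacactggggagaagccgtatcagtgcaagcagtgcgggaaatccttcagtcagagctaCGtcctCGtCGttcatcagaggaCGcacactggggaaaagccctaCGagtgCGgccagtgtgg

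Methylation of Gucy2e, a guanylate cyclase of the retina, was lower in Dnmt3a KO at all 10 CpGs of the printed stretch. The mean went from 56.9% to 14.8%, and the single differences ran from -67.8 to -27.8 percentage points. Igsf21, an immunoglobulin-superfamily adhesion protein, went from 75.1% to 36.1% over 11 CpGs. The fall was uneven along the Igsf21 exon. Of the 4 closely spaced CpGs at bases 26 to 35 of the stretch, counted from its 5′ end, Dnmt3a KO kept between 51.1% and 63.8%, while at base 78 the level went from 77.4% to 10.0%. In the stretch of Ston2, an adaptor protein of endocytosis, 10 CpGs went from 80.7% to 40.6% on average.

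Cdh1 encodes E-cadherin, the adhesion molecule that holds ES cell colonies together. Over its 10 CpGs the wild-type mean was 79.3% and the Dnmt3a KO mean 79.5%, with single differences on both sides of 0, from -15.7 to 14.3 percentage points. In Zfp180, which encodes a zinc finger protein, the 13 CpGs of the stretch averaged 81.6% and 80.4%. Differences between the libraries at single Zfp180 CpGs lay between -7.76 and 4.89 percentage points. A CpG at base 239 of the stretch, between highly methylated neighbours, had 31.1% in wild type and 27.3% in Dnmt3a KO. With 14 of 45 and 6 of 22 reads methylated, a loss of part of this level was not excluded.

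**Figure D1:**
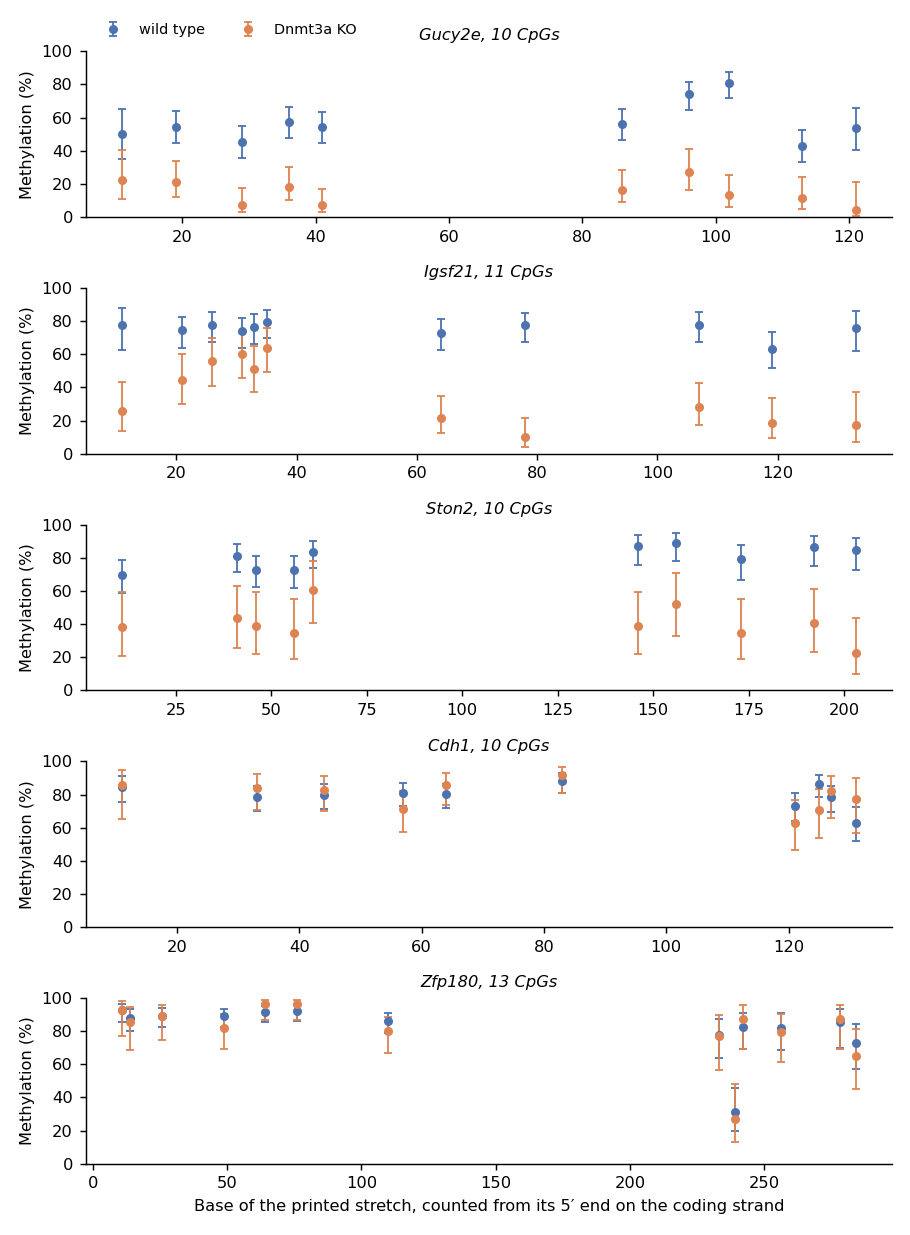
Methylation level (%, y axis) of each member CpG against its base in the printed stretch (x axis, counted from the 5′ end on the coding strand) in 5 coding exons; points are single CpGs in 1 library and bars are 95% Wilson intervals of the reads. Wild type lies above Dnmt3a KO at every CpG of Gucy2e, Igsf21 and Ston2, and both libraries lie together in Cdh1 and Zfp180.

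Over all 13661 CpGs, mean methylation fell from 42.9% in wild type to 31.4% in Dnmt3a KO. The difference of -11.5 percentage points (interval -11.6 to -11.3) was 26.8% of the wild-type level. Single levels were lower in Dnmt3a KO at 9924 CpGs, higher at 1667 and equal at 2070. CpGs at 80% or more made up 23.4% of the wild-type values and 9.08% of the Dnmt3a KO values. The mean was lower on each of the 19 autosomes.

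How far a level can fall depends on where it starts, so the members were split by their wild-type level. The 5413 CpGs under 20% fell from 3.70% to 1.85%. The 5050 CpGs between 20% and 80% fell from 57.4% to 37.6% (difference -19.8 percentage points, interval -20.1 to -19.6). The 3198 CpGs at 80% or more fell from 86.2% to 71.7% (difference -14.6 percentage points, interval -14.9 to -14.2). Intermediate CpGs thus lost more than highly methylated ones. Splitting by the wild-type reads alone selects high wild-type values in the top class and so enlarges its difference by itself.

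Fisher's exact test was applied to the reads of every one of the 327114 shared CpGs, with Benjamini-Hochberg adjustment over all of them, and a CpG was called at an adjusted p under 0.05 and at least 20 percentage points. Of the members, 1341 (9.82%) were called lower in Dnmt3a KO, against 2.45% of all shared CpGs, most of which are unmethylated in wild type. These 1341 CpGs lay in 589 genes and averaged 67.4% in wild type and 26.6% in Dnmt3a KO. By wild-type level, 18.8% of the intermediate members and 12.3% of those at 80% or more were called, against 20.0% and 11.8% of all shared CpGs of the same classes. At equal level, the shares called in exons far from starts thus lay close to those of all shared CpGs.

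Only 2 members were called higher, against 0.0532% of all shared CpGs. The first lay in the last exon of BC057022 at chr5:115061229, with 39 of 122 reads methylated in wild type and 26 of 39 in Dnmt3a KO. The other lay in an internal exon of Nod1, a cytoplasmic sensor of bacterial peptidoglycan, at chr6:54894530, with 0 of 56 and 5 of 22 reads. Both were named after their values were seen.

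The Dnmt TKO library gives the share of reads that look methylated without active methyltransferases. Of the members, 2059 had more than 20 reads there, and 39 of their 53495 reads were methylated, or 0.0729% (95% Wilson interval 0.0533 to 0.0996). No such member reached 20% in Dnmt TKO. At the members with at least 80% in wild type the share was 0.147% (13 of 8854 reads), against a mean of 70.4% for the same CpGs in Dnmt3a KO.

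Exon place was taken from all protein-coding transcripts over a CpG. By this, 7453 CpGs lay in internal exons, 5558 in last exons and 650 in exons whose place differed between transcripts. None lay in an exon that was first in every transcript, so first exons could not be compared. Internal exons fell from 51.6% in wild type to 38.7% in Dnmt3a KO (difference -12.8 percentage points, interval -13.0 to -12.6). Last exons fell from 31.9% to 22.2% (difference -9.77, interval -9.96 to -9.57). In wild type, 53.8% of the last-exon CpGs but 28.9% of the internal ones were under 20%, so last exons held more CpGs that had little to lose.

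**Figure D2:**
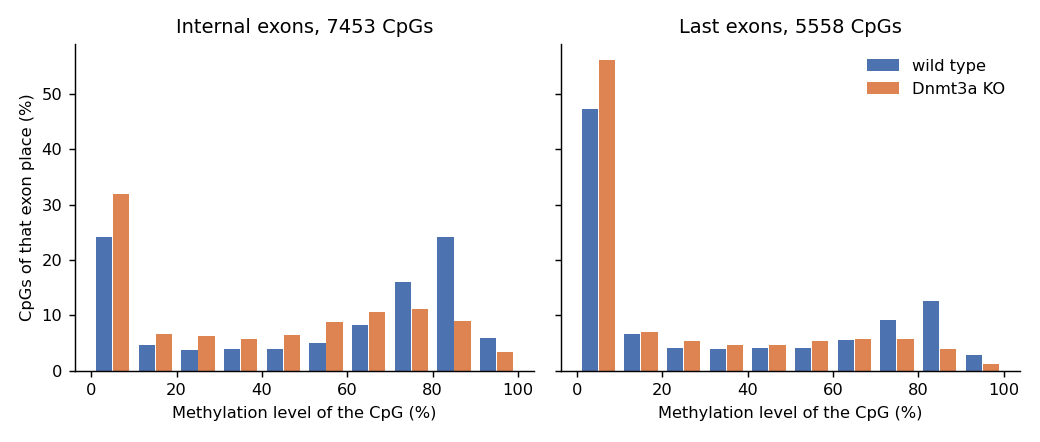
Share of CpGs (%, y axis) in bins of 10 percentage points of methylation level (x axis) in internal exons (left) and last exons (right), in wild type and Dnmt3a KO. In both places the bins above 70% are smaller and the bin under 10% is larger in Dnmt3a KO, and last exons hold 47.2% of their CpGs under 10% already in wild type.

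At equal wild-type level the order of the places turned. Among CpGs at 80% or more, internal exons went from 86.3% to 72.4% and last exons from 86.0% to 69.5%. The fall was 2.55 percentage points smaller in internal exons (interval 1.81 to 3.29). Between 20% and 80% it was 1.05 points smaller (0.45 to 1.65), whereas under 20% the difference of internal exons minus that of last exons was -0.52 points (-0.74 to -0.30). When every exon counted once, the mean difference was -14.4 percentage points in internal (interval -14.7 to -14.1) and in last exons (-14.9 to -14.0). With CpGs classed by the mean of both libraries, the difference at 80% or more was 0.92 points and its interval (-0.03 to 1.87) held 0.

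Coding sequence held 12024 members, 3′ UTRs 972 and 5′ UTRs 81, and 584 changed part between transcripts. The mean difference was -11.3 percentage points in coding sequence and -12.7 in 3′ UTRs. Highly methylated CpGs of the coding part of last exons showed the largest fall of these groups, from 86.0% to 68.4% over 575 CpGs. In the 3′ UTR part of last exons, 243 such CpGs went from 85.9% to 71.5%, and in internal coding exons 2148 went from 86.3% to 72.3%. Coding minus 3′ UTR, within last exons, was -3.15 points (interval -4.58 to -1.72). Internal minus last, within coding sequence, was 3.51 points (interval 2.65 to 4.36). Both gaps rest on classes from the wild-type reads and were not rerun with classes from the mean of both libraries. With those classes, internal minus last over all parts was 0.92 points (-0.03 to 1.87).

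**Figure D3:**
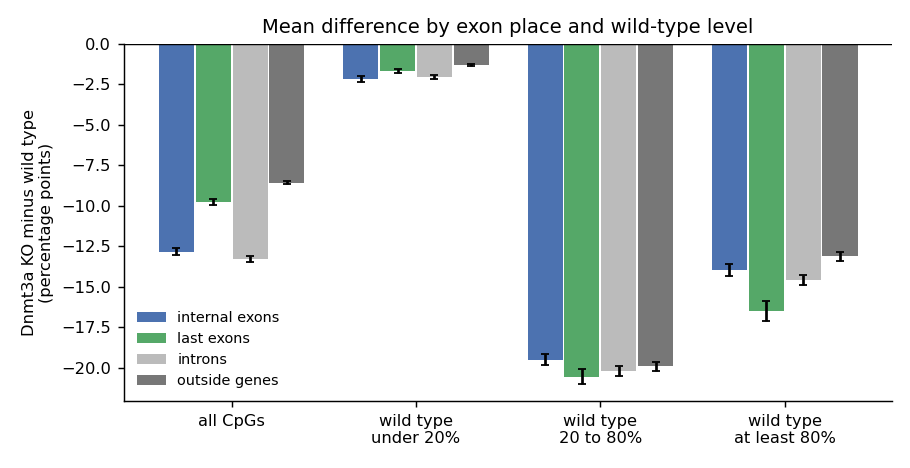
Mean difference between Dnmt3a KO and wild type (percentage points, y axis) for internal exons, last exons, introns and CpGs outside genes, over all CpGs and within wild-type level classes (x axis); bars start at 0 and error bars are 95% counting intervals. The groups differ most over all CpGs, and at 20 to 80% they all lie between -20.5 and -19.5.

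Introns of protein-coding genes are the nearest comparison, since they too lie in the bodies of such genes. They were taken from all protein-coding genes, not only from those with member exons, and transcription was not measured here. The 11089 intronic CpGs more than 5000 bp from every start went from 52.4% to 39.1%, or by -13.3 percentage points. At wild-type levels of 80% or more, exons changed by -14.56 percentage points and introns by -14.58 (exons minus introns 0.02, interval -0.43 to 0.47). Between 20% and 80% it was -19.8 in exons and -20.2 in introns (exons minus introns 0.34, interval -0.07 to 0.76). By counting error alone, these intervals allow a gap of less than 1 percentage point either way. They ignore reads shared by neighbouring CpGs, so the true bounds are wider. CpGs outside all genes, at the same distance from starts, lost less than exons at 80% or more (exons minus outside genes -1.46 points, interval -1.89 to -1.04). Classed by the mean of both libraries, the gap was -0.42 points, with an interval (-0.94 to 0.09) that held 0.

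In 192 genes with at least 5 CpGs of each kind, the exonic CpGs changed by -12.4 percentage points on average and the intronic CpGs by -13.7. The change was more negative in exons in 93 of these genes and in introns in 98. Igsf21 was among the former, with -39.1 percentage points in its exon and -18.2 in its introns. Its wild-type levels differed, at 75.1% in the exon and 43.6% in the introns. In 83 of the genes both parts had at least 50% in wild type. There the change was more negative in exons in 36 genes and in introns in 47, with means of -15.8 and -18.8 percentage points. Pooled over the 192 genes, CpGs between 20% and 80% in wild type changed by -18.9 percentage points in exons and by -21.6 in introns. The gap was 2.68 points (interval 1.80 to 3.56), and 2.72 (interval 1.91 to 3.52) with classes from the mean of both libraries, tried after these values were seen. At 80% or more the gap was 2.01 points (interval 1.00 to 3.02), or 2.17 when some wild-type reads, drawn at random, set the class (interval 1.01 to 3.33). It was smaller, at 0.56 points, with over 10 reads in both libraries (interval 0.07 to 1.04). With classes from the mean of both libraries it was -0.0071 (interval -1.29 to 1.28).

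At 80% or more, the fall also differed with position in the gene body. From 5000 to 10000 bp to over 50000 bp from the nearest start, the difference of CpGs at 80% or more went from -15.7 to -13.4 percentage points, 2.32 less (interval 1.19 to 3.44), while between 20% and 80% it was -19.9 in both. Within 50 bp of an exon border, CpGs at 80% or more fell by 13.6 percentage points, and more than 150 bp away they fell by 15.3. The place of the CG in the codon made differences of at most 1.52 points within a level class.

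Local CpG density, counted as CpGs of the genome within 100 bp, went with the wild-type level. Members with at most 9 averaged 68.4% in wild type and 52.8% in Dnmt3a KO. Members with more than 14 averaged 7.56% and 4.31%. At 80% or more, the difference was -13.3 points at low density, -18.0 at middle density and -18.5 at high density, where only 60 CpGs remained. The gap between high and low density there was -5.24 points (interval -7.66 to -2.81). Between 20% and 80%, the 437 CpGs at high density changed by -19.0 percentage points and those at low density by -19.2. The gap was 0.19, with an interval that held 0 (-0.76 to 1.14). Their wild-type means within this class differed, at 42.5% and 62.3%, so the class did not set them at equal level. Relative to wild type, the loss was 44.8% at high and 30.9% at low density. Middle density started at 53.8% and changed by -20.9 percentage points, or 38.9% of its level.

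The base next to the CpG went with larger differences in the fall than exon place, coding part, distance or border did. The catalytic domains of DNMT3A and DNMT3B are known to differ in the bases they prefer after the CpG, and neither enzyme was assayed here. Among members between 20% and 80% in wild type, those read as GCGC went from 54.3% to 25.4%, those as ACGT from 60.8% to 34.5% and those as GCGA from 59.2% to 33.3%. At the other end, CCGG went from 54.5% to 42.9%, CCGA from 58.4% to 47.7% and TCGA from 60.9% to 51.5%. In each name the CG stands between its neighbours, and a sequence and its reverse complement were joined. Of the GCGC members in this class, 39.3% were called lower, against 2.60% of the TCGA members.

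The flanks were then grouped, after these values were seen, by the base after the CG. On each strand this base is a pyrimidine (C or T) or a purine (A or G). Of the members, 3552 had a pyrimidine on both strands (GCGC or ACGC or else ACGT), 7157 on 1 strand (GCGA or CCGC or else ACGG or ACGA) and 2952 on neither (CCGA or CCGG or else TCGA). Between 20% and 80%, the wild-type means of the 3 groups were within 1 point of each other, at 57.3%, 57.4% and 57.7%. Their Dnmt3a KO means were 30.8%, 36.2% and 46.9%. The difference with pyrimidines on both strands minus that with neither was -15.7 points (interval -16.5 to -14.9), and at 80% or more it was -9.73 points (interval -10.7 to -8.79). Single flanks of the first and second group overlapped. With a pyrimidine on 1 strand, the difference between 20% and 80% was -26.0 percentage points at GCGA, -23.1 at CCGC, -18.6 at ACGA and -16.6 at ACGG, while ACGC, with pyrimidines on both, had -24.4. Calls followed the order of the group means, with 14.5%, 10.5% and 2.51% of the CpGs called lower.

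The order of the group means held in internal and in last exons and in each reading frame. In internal exons between 20% and 80%, the differences were -26.4, -21.0 and -10.4 percentage points with pyrimidines on both, 1 and neither strand, and in last exons they were -26.7, -21.6 and -11.9. It was not particular to exons. In introns the same groups gave -26.8, -21.4 and -11.5 percentage points, outside genes -27.0, -20.4 and -11.5, and in exons near starts -25.9, -21.3 and -11.1. The pattern could also be read within single exons. In 691 exons that held both kinds of CpG at 20% or more in wild type, the change was more negative at those with pyrimidines on both strands in 571 exons and at those with neither in 120, with a median gap of -11.9 percentage points. With the 20% limit put on the mean of both libraries, the counts were 549 and 116 of 665 exons.

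**Figure D4:**
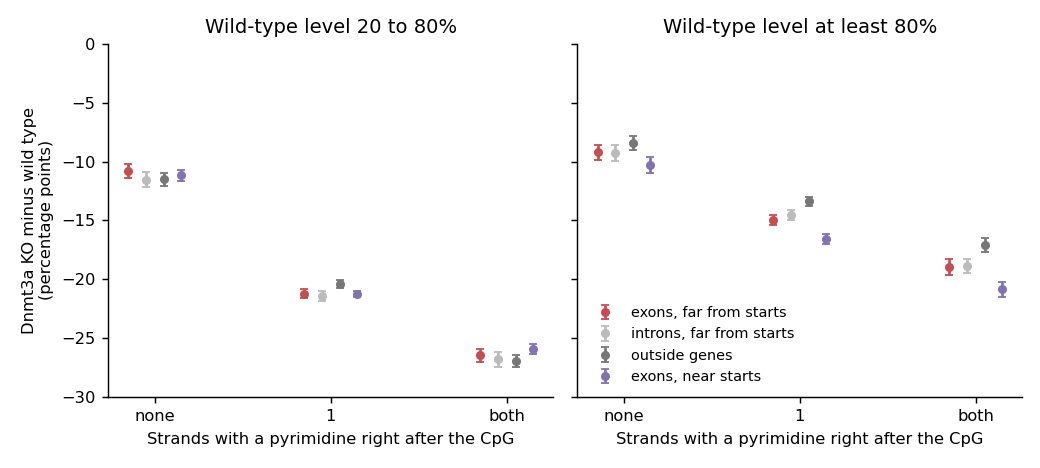
Mean difference between Dnmt3a KO and wild type (percentage points, y axis) by the number of strands with a pyrimidine right after the CpG (x axis), at 20 to 80% (left) and at least 80% (right) in wild type, in exons far from starts and in 3 other sets of CpGs; error bars are 95% counting intervals. In all 4 sets the fall grows from neither strand to both, in the exons from -10.8 to -26.5 at 20 to 80%.

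Single exons could go against this order. In Igsf21 the 5 CpGs with pyrimidines on both strands changed by -34.7 percentage points on average. The 5 with 1 changed by -41.4 and the 1 CpG with neither by -49.5. The well-kept run of close CpGs belongs mostly to the group with both. In Gucy2e the order was kept, with -57.6 points over 2 CpGs, -39.3 over 4 and -37.1 over 4.

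By gene, 383 genes held at least 10 member CpGs. The Dnmt3a KO mean was under the wild-type mean in 370 and above it in 12. The counting interval lay below 0 in 312 genes and above 0 in none. In 73 genes (19.1%) the mean fell by at least 20 percentage points, against 21% of the 252 genes measured in the same way by their introns, and 0 genes rose by as much, against 0% of those genes. Of 91 genes with a wild-type mean of at least 70%, 34 passed this limit, of 145 between 20% and 70%, 39 did, and of 147 under 20% none could.

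**Figure D5:**
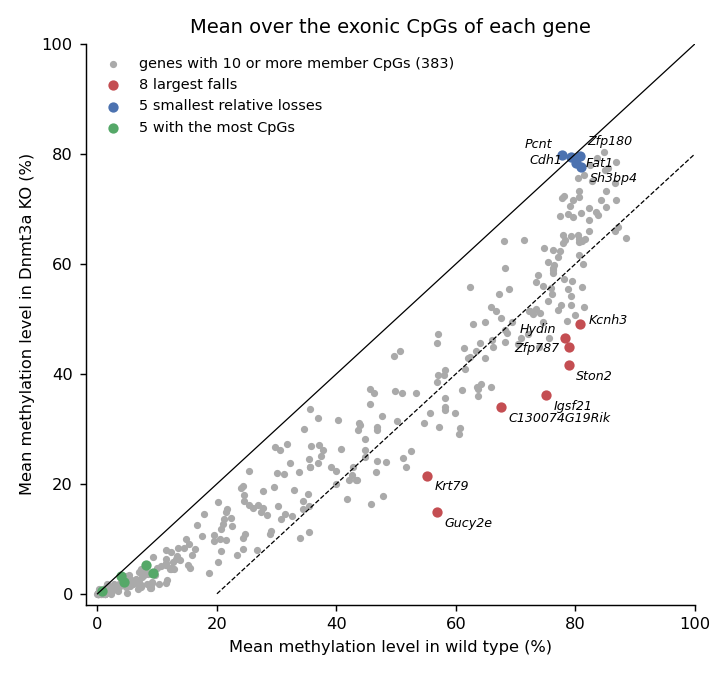
Mean methylation of the exonic CpGs of 383 genes in wild type (%, x axis) and Dnmt3a KO (%, y axis), each point a gene with at least 10 member CpGs; the solid line marks equal levels and the dashed line a fall of 20 percentage points. Nearly all genes lie under the solid line, and the genes with the most CpGs lie near the origin.

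The 8 genes with the largest falls had diverse products. Gucy2e, Igsf21 and Ston2 led them. Zfp787, which encodes a zinc finger protein, had 32 CpGs in its last exon on chromosome 7, at 61.2% to 94.7% in wild type and 26.1% to 56.0% in Dnmt3a KO. The 2 ranges did not overlap, and 13 of these CpGs were called. In Krt79, a keratin of the skin, 9 CpGs of the last exon went from 41.4% to 8.09% and 5 CpGs of exon 7 from 80.1% to 45.6%. The falls were alike in points (-33.3 and -34.5), and so took a larger share of the lower wild-type level. C130074G19Rik went from 67.6% to 33.9% over 13 CpGs of its last exon.

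Hydin encodes a protein of the central apparatus of motile cilia. Its 10 CpGs lay in 3 exons, of which exon 21 went from 81.9% to 43.7% and exon 86 from 77.0% to 52.5%. Kcnh3, a voltage-gated potassium channel of the brain, went from 80.7% to 49.2% over 14 CpGs in 3 exons.

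The genes that kept most of a high level were Pcnt, Cdh1, Zfp180, Fat1 and Sh3bp4. Pcnt, the centrosome scaffold pericentrin, had 77.7% in wild type and 79.7% in Dnmt3a KO over 10 CpGs of 2 exons (difference 2.01, interval -3.67 to 7.68). Fat1, an atypical cadherin, had 80.2% and 78.3% over 10 CpGs of exon 4. Sh3bp4, an SH3-domain protein of endocytosis, had 81.0% and 77.6% over 18 CpGs. The intervals of all 5 genes held 0. Pcnt's upper bound lies well above 0, so a small gain there was not detectable at this depth. Losses of some points were not excluded either, with lower bounds of -4.73 in Cdh1, -5.73 in Zfp180, -7.94 in Fat1 and -7.73 in Sh3bp4. The 5 genes were chosen by their small relative loss.

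The 5 largest positive differences among genes were those of Pcnt and Cdh1 and of 3 unmethylated genes. Pomc, the precursor of pituitary peptide hormones, had 0.196% in wild type and 0.896% in Dnmt3a KO over 18 CpGs. Vsig8 had 0.313% and 0.562%, and Lars2, a mitochondrial leucyl-tRNA synthetase, 1.63% and 1.79%. All 5 intervals held 0. Lars2 was also covered more deeply in Dnmt3a KO (median 54.5 reads) than in wild type (33.5 reads), against the general order, and the part of this in its level was not tested. With the limit lowered to 5 CpGs, intervals lay above 0 in 2 of 891 genes, which were named after their values were seen. Hivep1, a zinc finger protein, had 24.2% and 32.6% over 8 CpGs (interval of the difference 1.77 to 15.1), and Cep350, a centrosomal protein, 78.9% and 86.4% over 5 CpGs (1.31 to 13.8).

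The genes with the most member CpGs were CpG-dense and nearly unmethylated in both libraries. Kbtbd11 had 112 CpGs in its last exon, 4.40% in wild type and 2.06% in Dnmt3a KO. Cilp2, a matrix protein of cartilage, had 92 at 9.25% and 3.87%, and Snx20, a sorting nexin, had 76 at 0.733% and 0.430%. Exons of 1 gene could differ widely. In Asb18, 80 CpGs of exon 4 had 0.618% and 0.193%, 20 CpGs of exon 3 had 22.4% and 10.9%, and 4 CpGs of exon 2 had 88.5% and 78.7%. Otud7a, a deubiquitinase, likewise had 77.0% and 64.6% in exon 6 and 0.292% and 0.172% over 80 CpGs of its last exon.

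Gene families were described over genes with at least 5 member CpGs. Of all 891, 861 had a negative difference and 27 a positive one, 706 had intervals below 0, and 243 (27.3%) fell by 20 points or more, with a median difference of -12.9 percentage points. Of 17 potassium, sodium and calcium channel genes matched by symbol, 16 had intervals below 0 and 6 passed the limit of 20 points (median -15.1). Cacna1i, a T-type calcium channel, went from 44.7% to 24.8% over 29 CpGs, while Cacna1a, with 2.79% and 1.42% over 74 CpGs, and Kcnk12, with 1.38% and 0.0967% over 47, were low in wild type. Most are voltage-gated channels, but Kcnk12 is a two-pore-domain channel, Kcnn4 is opened by calcium, and Kcnj4 and Kcnj10, with differences of -25.6 and -23.4 percentage points, are inward rectifiers, all but Kcnk12 named here after their values were seen. Of 17 genes of myosins, dyneins and giant cytoskeletal proteins, 15 had intervals below 0 and 7 passed (median -13.1). Dnahc10, a ciliary dynein, went from 58.1% to 35.7%, Plec, the cytolinker plectin, from 56.8% to 45.7% over 54 CpGs and Dnahc8 from 79.1% to 70.6%.

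C2H2 zinc finger proteins, the largest family, had 34 genes, of which 25 had intervals below 0 and 11 passed the limit (median -12.7). They ranged from Zfp366 (70.4% to 27.5% over 5 CpGs) to Zfp462, which had 77.5% and 82.4% over 7 CpGs. The Zfp462 interval held 0 (-1.99 to 11.8), and both genes were named after their values were seen. Zfp787 and Zfp180 lay between them. The unmethylated Zfp771, Prdm12 and Zfp697 were all under 0.2% in both libraries. Of 10 chromatin regulators, 8 had intervals below 0 (median -15.9) and 1, Arid5b, fell by more than 20 points (72.2% to 51.4%). Tet3, which oxidises methylated cytosine, went from 71.4% to 64.3% over 23 CpGs, and Mll2, a histone methyltransferase, from 74.7% to 62.9%.

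Cadherin superfamily genes had the smallest median, at -4.39 percentage points over 8 genes, of which 4 had intervals below 0 and none passed the limit. Cdh22 went from 29.5% to 19.4%, Cdh20 from 19.5% to 10.6%, and Pcdh1 had 1.27% and 0% over 13 CpGs. None of 12 genes of laminin and EGF-repeat proteins passed either, and 10 had intervals below 0 (median -11.3). Notch3, a receptor, went from 45.6% to 34.5%, Hspg2, the proteoglycan perlecan, from 67.1% to 54.5% and Ltbp3, which binds latent TGF-β, from 19.6% to 9.59%. Of 6 collagen genes, 5 had intervals below 0 and 1 passed the limit (median -14.0). The latter, named after its values were seen, was Col22a1 (55.8% to 22.6% over 6 CpGs). The collagens with the most CpGs changed less, with Col6a2 going from 77.9% to 63.7%, Col4a2 from 78.5% to 64.7% and Col6a6 from 62.3% to 55.7%.

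The remaining lists were small. All 3 genes of plexins and semaphorins had intervals below 0 (median -17.8 points), and Plxna1, a semaphorin receptor, fell by 20.6 points from 86.6%. Sema5b went from 47.0% to 30.7% and Sema6b from 74.2% to 56.5%. Of 2 ADAMTS proteases, Adamts17 fell by 30.9 points from 81.2% and Adamts18 had 87.7% and 82.7%, with an interval that held 0. Of 4 ABC transporters, 3 had intervals below 0 and 2 passed the limit, Abcb9 (77.3% to 53.2%) and Abcc12 (64.1% to 40.2%), and Abcc6 went from 85.5% to 74.3%. With few genes and few CpGs each, none of these medians was set apart from that of all genes.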

How the data were processed

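RRBS of ES cells was analysed with 1 library each for wild type, Dnmt3a KO and Dnmt TKO. The authors trimmed reads with Trim Galore, aligned them to mm9 (the labels name Bowtie and the methods QuasR, versions not given in the sources used here) and deposited, per CpG with at least 10 reads, read counts (all and methylated) and their ratio as a fraction. The deposited fraction was not used, and levels were recomputed from the counts. No molecular identifiers are described, and whether duplicate reads were removed from the RRBS libraries is not given in the sources used here. The files list 1035670, 918295 and 558703 CpGs (median 29, 17 and 12 reads).

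Levels were averaged over CpGs, and 95% intervals came from summed binomial variances. Calls used two-sided Fisher's exact tests over all 327114 shared CpGs (Benjamini-Hochberg q under 0.05, at least 20 percentage points), checked on simulated data. The simulated drops were all well past this limit, at methylated CpGs of higher depth, with reads drawn independently at each CpG. Smaller drops and shared reads were not simulated for the calls. Exon place and part came from GENCODE vM1 protein-coding transcripts. Named genes with at least 10 member CpGs were the 8 largest falls, 5 largest rises and 5 with the most members. From the same genes came the 5 with the smallest relative loss from at least 70% and the 5 largest under 20%. Up to 3 genes with the most CpGs per gene list (10 lists, by symbol) were taken from those with at least 5 member CpGs. Members, lists and named genes were chosen with earlier results of these data known. Alternatives changed coverage, distance, weighting, level classes, transcripts and thresholds. Tools were Python 3.11.15, numpy 2.4.6, scipy 1.17.1, pandas 2.3.3 and numba 0.67.0.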

Additional observations from a re-analysis of the deposited data

How the results depend on the processing

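No paired analysis was possible because each genotype has 1 library. The falls over all members, internal exons and last exons stayed below 0, with intervals that excluded it, in every alternative run, between -6.68 (last exons, over 40 reads) and -14.4 percentage points (mean over exons). The flank gap lay between -14.1 and -15.9 in every setting, all chosen after seeing the data. With over 40 reads in both libraries, 383 CpGs were called lower and 0 higher, and 7 genes fell by at least 20 points. The gap between exons and introns of the same genes at 80% or more was then 0.73 with an interval that held 0. With over 10 reads, 203 genes fell by at least 20 points, and that gap was 0.56 (interval 0.07 to 1.04). Drawing 20 reads from each library left 65 CpGs called lower and 0 higher, and q under 0.01 left 765 and 0. Genes with at least 5 CpGs gave 243 falls. Level classes from the mean of both libraries gave 0.92 for internal minus last exons, -0.42 for exons minus CpGs outside genes and -0.0071 for exons minus introns of the same genes. The cause was not tested, except that fewer reads or CpGs enter the stricter settings. At 10 or more reads the Dnmt TKO share was 0.141%. The members had a median of 30 reads in the Dnmt3a KO library. Between 20% and 80% in wild type, the gap between exons and introns of the same genes kept its sign and an interval above 0 under both other ways of classing, tried after seeing the data (2.72 and 3.12 points).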

Other observations

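Exons of genes that do not code for protein held 330 CpGs under the same limits on reads, chromosomes and distance. They fell from 20.99% to 14.6% (difference -6.40 percentage points, interval -7.04 to -5.75). Of the 330, 10 (3.03%) were called lower, near the 2.45% of all shared CpGs. Between 20% and 80% in wild type, 12.9% of 62 were called lower, against 20.0% of all shared CpGs of that class. The 34 of the 330 with at least 80% in wild type went from 86.0% to 72.3%. On the X chromosome, 5 exonic CpGs met the limits, all under 20% in wild type, with means of 4.995% and 0.833% (interval of the difference -8.36 to 0.04).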
